A study of Mus musculus with 8 samples.

Results

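SL-Myh7 is the smallest but one of the 7 subtypes into which the study divided the excitatory neurons of the mouse prefrontal cortex (PFC), and it was named for superficial layer position and for the gene Myh7. Its members were the cells that carried this name in the deposited cell annotation, and no cell was added or removed here. They numbered 194 of 2775 excitatory neurons, of 8997 annotated PFC cells, and of 23687 annotated cells of PFC and striatum together. The study applied single-cell RNA sequencing (scRNA-seq) to PFC and striatum of wild-type (WT) mice and of mice heterozygous for a CRISPR-Cas9 frameshift deletion in the 15th exon of Setd1a, which encodes a histone H3 lysine 4 methyltransferase. The PFC groups were WT (no treatment, C57BL/6N) and Setd1a+/- (the same strain, labelled as treated with Setd1a CRISPR-Cas9), all male and labelled 8 to 10 weeks old, whereas the methods of the study give an older age. Each group had 2 libraries, each library pooled 2 mice, and every cell of the Setd1a+/- mice carried the deletion, since no cell type-restricted driver was used.

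Upper-layer excitatory neurons send axons mainly within the cortex, to the other hemisphere and to nearby layers, and are commonly recognized by the homeodomain factor Cux2 and by calbindin (Calb1). Deep-layer neurons project to the thalamus, brainstem and spinal cord as well, and are recognized by factors such as Foxp2, Fezf2 and Bcl11b. Myh7 encodes the slow (beta) myosin heavy chain best known from heart and slow skeletal muscle, and it also serves as a marker of cortical neuron types in transcriptome surveys.

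The 194 cells came as 23 and 52 from the WT replicates 1 and 2 and as 56 and 63 from the Setd1a+/- replicates 1 and 2. Their unique molecular identifiers (UMIs, each standing for a captured transcript molecule) summed to 193221, 320630, 324415 and 517472 in the same order, and no cell barcode was shared between libraries within SL-Myh7. The median cell held 7544, 5661, 5636.5 and 8331 UMIs, so that neither genotype was consistently deeper (exact permutation test, two-sided, p = 1, where the smallest possible p with 2 libraries against 2 is 0.333). The libraries of the same replicate number stood apart from those of the other number: Mt3, a metallothionein, had 0 UMIs in both replicate 1 libraries and 761 and 711 CPM (UMIs of a gene per 1e6 UMIs of the summed cells) in the replicate 2 libraries, and the glycolytic gene Gapdh had 67.3 and 36.99 CPM against 1017 and 1015 CPM. The same split of Mt3 was present in all 7 excitatory subtypes. With genotype as a term, edgeR's quasi-likelihood test called 309 of 5351 genes (5.77%) between replicate numbers in SL-Myh7 (243 higher in replicate 2, 66 lower), a contrast added after the data were seen, and the cause was not tested. Levels below are therefore given for every library for the main genes and as means over the 4 libraries for the others.

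The label was checked on the genes that name it. Myh7 reached 98.3, 150 (WT), 83.2 and 128 CPM (Setd1a+/-) in SL-Myh7, and 15.6, 11.8, 8.27 and 14.6 CPM in the other 6 excitatory subtypes summed. Within a library the ratio was 6.29 to 12.7. Cux2 reached 145, 112, 166 and 162 CPM, a mean of 146 ± 24.6 CPM (SD, n = 4 libraries), against a mean of 31.4 CPM in the other subtypes summed. For Cux2 the nearest neighbour was SL-Cux2 with 114, 66.0, 150 and 122 CPM (mean 113 CPM). This was below SL-Myh7 within every library, though the ranges of the 2 subtypes overlapped. Cux2 thus marked both superficial subtypes, and Myh7 separated them. Outside excitatory neurons Myh7 had 0.580 to 1.43 CPM in oligodendrocytes, 0 to 8.96 CPM in newly formed oligodendrocytes (2 UMIs in all), 0 to 5.36 CPM in oligodendrocyte precursors (4 UMIs), 0 to 1.99 CPM in inhibitory neurons and 0 UMIs in astrocytes, endothelial cells and microglia, while barcodes with at most 100 UMIs, which hold mainly free RNA, had 9.35 to 18.8 CPM. These clusters were made from the same expression values, so the levels describe the annotation and are not a test of it.

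The stretch upstream of both marker genes is shown because the subtype is defined by them; both come from RefSeq promoters (GRCm38.p6), read 5′ to 3′ on the gene's strand, and capitals mark every match to the E-box CANNTG, the core recognized by basic helix-loop-helix factors. The Myh7 stretch lies at chr14:54994627-54994876 (minus strand), the 250 bases before a start site that is also the annotated start of the gene. The Cux2 stretch lies at chr5:122049852-122050101 (minus strand), before a RefSeq start.
Myh7: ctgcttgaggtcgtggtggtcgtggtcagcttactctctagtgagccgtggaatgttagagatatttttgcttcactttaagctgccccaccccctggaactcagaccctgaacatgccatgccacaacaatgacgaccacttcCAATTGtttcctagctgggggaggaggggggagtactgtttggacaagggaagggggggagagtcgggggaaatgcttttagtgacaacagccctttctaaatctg
Cux2: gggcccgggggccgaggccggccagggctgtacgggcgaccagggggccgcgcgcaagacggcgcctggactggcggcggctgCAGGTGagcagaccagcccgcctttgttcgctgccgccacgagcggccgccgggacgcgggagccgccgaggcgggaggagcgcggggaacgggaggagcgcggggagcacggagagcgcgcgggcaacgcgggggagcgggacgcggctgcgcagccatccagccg
Each stretch held 1 E-box, searched on both strands, and 66.2% of 32841 RefSeq promoter stretches of this length held at least 1, so the match is common. TATAAA, searched likewise, was in neither stretch and in 12.4% of all.

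**Figure D1:**
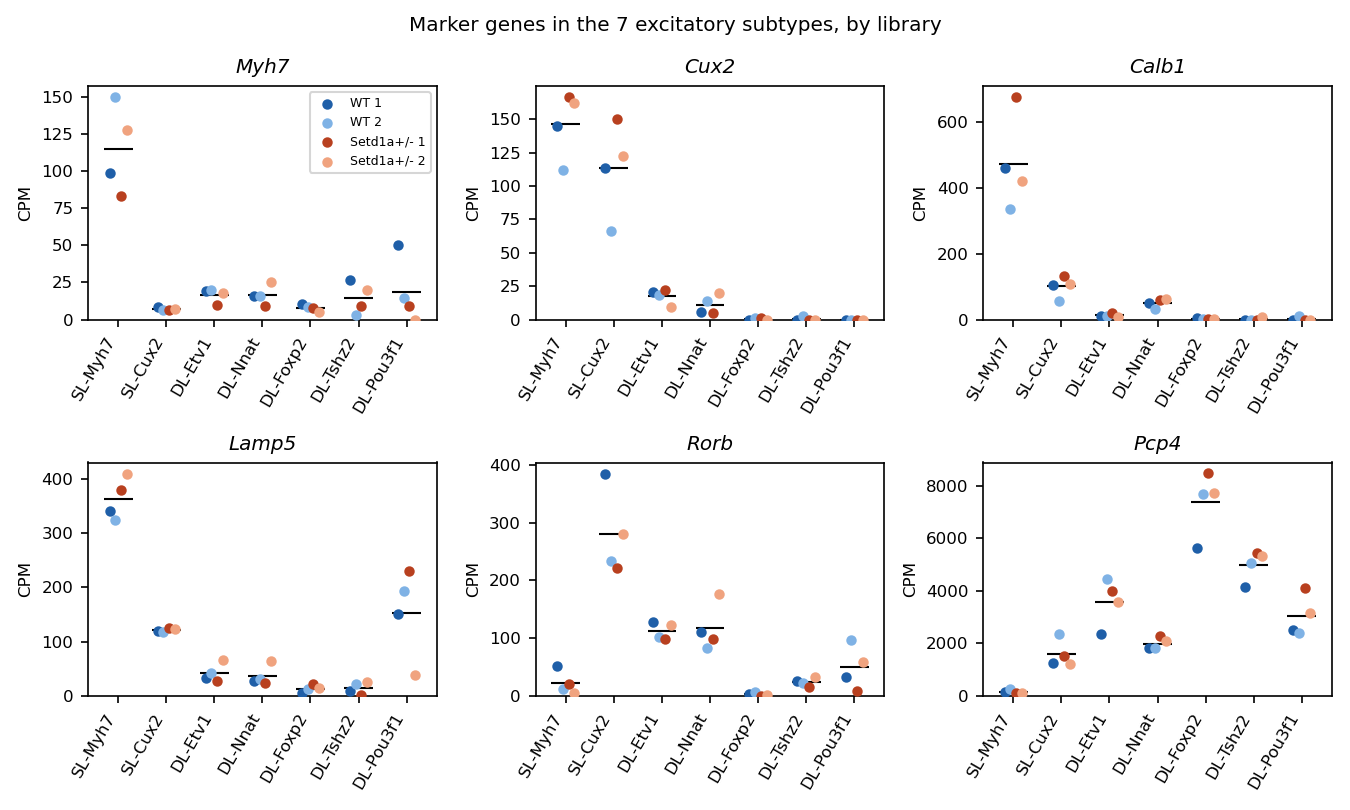
Level in CPM (y axis, linear) of 6 genes in the 7 excitatory subtypes (x axis), with a point for each of the 4 libraries and a bar at their mean. Myh7 and Calb1 separate SL-Myh7 from every other subtype in all 4 libraries, Cux2 is shared with SL-Cux2, and Rorb and Pcp4 are low in SL-Myh7.

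Which genes set SL-Myh7 apart from the other excitatory neurons? Of 8429 genes with at least 200 UMIs over all excitatory neurons, 75 were at least 2-fold higher in SL-Myh7 than in the other 6 subtypes summed in every library (0.890%) and 181 were at least 2-fold lower (2.15%). Only 26 of the higher genes were also at least 2-fold above each other subtype taken alone. These counts describe cells that were clustered on the same genes and carry no test. A separate ranking used the 955 genes with at least 50 UMIs in SL-Myh7 and a level above the other subtypes summed in every library. A gene could pass this filter by being high in SL-Myh7, as Lpl did with 150 UMIs over all excitatory neurons, under the 200 used above. Ranked by the ratio to the highest other subtype, the leading genes after Myh7 were Lpl, Calb1 and Nectin3. Lpl, a lipoprotein lipase, had 72.5, 96.7, 64.7 and 59.9 CPM against a mean of 2.93 CPM in the other subtypes summed, a ratio of 25.0. Calb1, a calcium buffer, had 461, 337, 675 and 419 CPM against 35.4 CPM. Nectin3, a cell adhesion molecule of the immunoglobulin superfamily, had 88.0, 122, 111 and 73.4 CPM against 9.16 CPM. For each of these genes the lowest SL-Myh7 library lay far above the level of the other subtypes.

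The remaining genes of the leading 20 covered several roles, with ratios to the other subtypes summed from 2.99 to 11.9. Among signalling genes, Gucy1a1, a subunit of the nitric oxide-sensitive guanylate cyclase, had a mean of 402 ± 75.5 CPM (SD, n = 4 libraries) against 78.1 CPM, and Rasgrf2, a calcium-regulated exchange factor for Ras, had 183 ± 38.6 CPM against 29.7 CPM. Receptor genes of inhibition were in the group as well: Gabrd, the delta subunit of extrasynaptic GABA-A receptors, had 90.1 ± 11.7 CPM against 30.2 CPM, and Kctd12, an auxiliary subunit of GABA-B receptors, had 55.1 ± 14.2 CPM against 11.4 CPM. Lamp5, a lysosome-associated membrane protein family member of upper-layer neurons, had 364 ± 38.3 CPM against 53.2 CPM, and Wfs1, an endoplasmic reticulum protein mutated in Wolfram syndrome, had 146 ± 17.3 CPM against 19.99 CPM. For Lamp5 the deep-layer subtype DL-Pou3f1 had a mean of 154 CPM and SL-Cux2 122 CPM. Inhibitory neurons had Lamp5 at 285 to 420 CPM and Calb1 at 269 to 486 CPM, so these genes set SL-Myh7 apart among excitatory neurons only. Extracellular matrix and adhesion genes were Matn2, Smoc2 and Itgb8, of which Matn2 varied most, with 93.2 and 77.1 CPM in the replicate 1 libraries and 25.0 and 21.3 CPM in the replicate 2 libraries. S100a6 (a small calcium-binding protein), Ngb (neuroglobin), Aldh3b1, Stard8, Rilpl1 and Clec18a were also on the list. Since its filter counted UMIs in SL-Myh7, genes with few UMIs elsewhere could enter it by being high there, and the list describes the annotation only.

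The 10 genes with the lowest ratios were Foxp2, Fezf2, Sema5a, Tshz2, Hs3st4, Nrip3, Tmem91, Pcp4, Il11ra1 and Myl4, most of them known from deep layers. Foxp2 had no UMI among the 1355738 of SL-Myh7 against 72.8 CPM in the other subtypes summed; taking 3 UMIs over the whole group as the limit that a count of 0 allows, it was at least 32.9-fold lower. Fezf2, the selector gene of subcerebral projection neurons, had 1 UMI against 54.5 CPM. Pcp4, a calmodulin-binding peptide abundant in deep layers, remained measurable at 150, 284, 114 and 131 CPM but averaged 3859 CPM in the other subtypes summed, and even SL-Cux2 held more in every library.

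**Figure D2:**
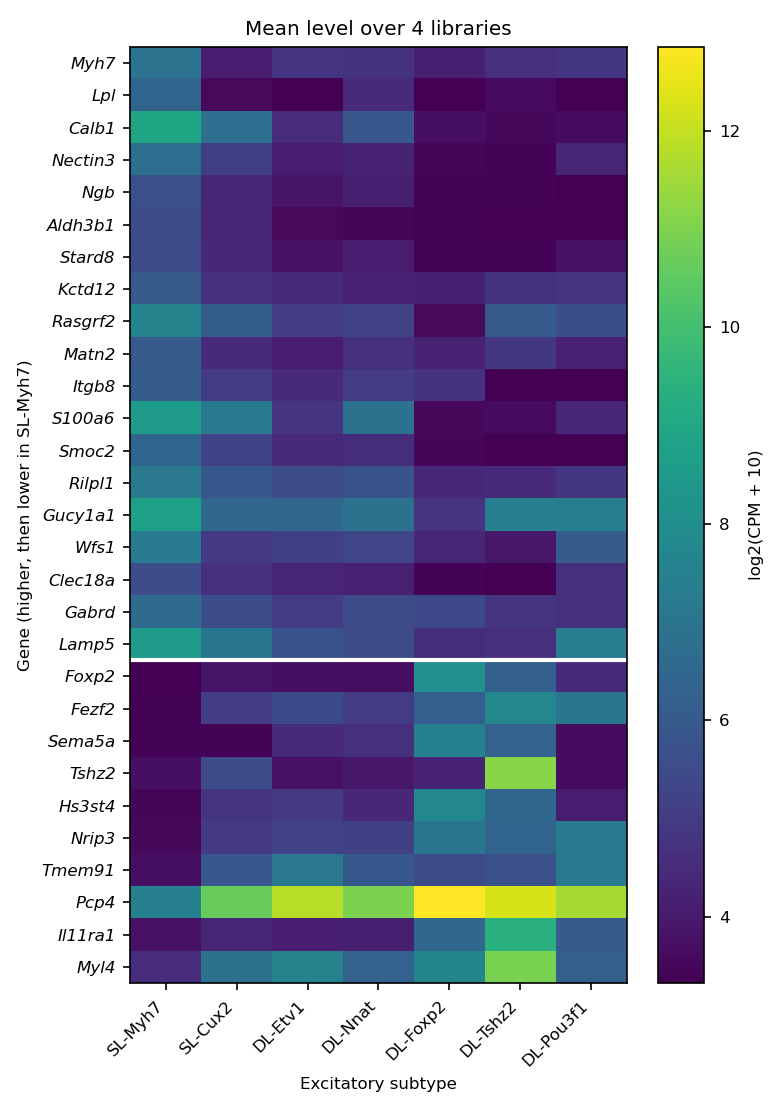
Mean level over the 4 libraries, as log2(CPM + 10) by colour, of 19 of the 20 genes with the highest ratio to the highest other subtype (above the white line) and the 10 with the lowest ratio to the others (below it), in the 7 excitatory subtypes. The upper block is brightest in SL-Myh7, and the lower block is dark in SL-Myh7 and bright mainly in deep layer subtypes. In the upper block the next highest subtype differs by gene, such as SL-Cux2 for Calb1 and Nectin3, DL-Nnat for Lpl and DL-Pou3f1 for Lamp5 and Wfs1.

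Gene lists by layer are set here beside a median log2 ratio of -0.01 over all 8429 genes, of which 0.890% were at least 2-fold higher in every library and 2.15% lower. Of 11 measured layer 2/3 genes, 8 were at least 2-fold higher in every library and none was lower, with a median log2 ratio of 1.92 on the log2(CPM + 10) scale. Of these, Lamp5, Calb1, Rasgrf2, Wfs1, Nectin3 and Matn2 were already among the leading 20, and Cux2 is a marker of the subtype. The 200 UMIs included those of SL-Myh7, where Nectin3 had 130 of its 295. The lists were also chosen with earlier results of these data known, so list counts describe the annotation and are no test of layer. All 6 measured layer 6 and 6b genes were lower, among them Rprm with 25.9, 15.6, 49.3 and 34.8 CPM against 628 CPM, and so were 4 of 5 layer 5 intratelencephalic and 2 of 3 layer 5 extratelencephalic genes. Both measured middle-layer genes were lower: Rorb, a nuclear receptor of layer 4, had 51.8, 12.5, 21.6 and 5.80 CPM, against 114 CPM in the other subtypes summed and 279 CPM in SL-Cux2. None of the 9 interneuron, 8 endothelial and mural and 6 hippocampal genes on the lists reached 200 UMIs over excitatory neurons. Gad1, the defining interneuron enzyme, had 10 UMIs (7.45 CPM, against 3.90 CPM in the other subtypes summed) in SL-Myh7, and the astrocyte glutamate transporter gene Slc1a2, which excitatory neurons also transcribe, was lower than in the other subtypes at 227 against 584 CPM.

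Genes shared by all excitatory neurons also differed in level. Neurod1 was higher than in the other subtypes summed (72.5 against 29.6 CPM, with 84.2 CPM in SL-Cux2), while the related factor Neurod6 (210 against 506 CPM) and the vesicular glutamate transporter gene Slc17a6 (3 UMIs against 22.4 CPM) were lower. Slc17a7, the main cortical vesicular glutamate transporter, had 181, 296, 102 and 230 CPM against 356 CPM, below the other subtypes in each library but by less than 2-fold on average. Synaptic and membrane lists are set beside 0.890% of all 8429 genes at least 2-fold higher in every library and 2.15% lower. Syngr1 alone was lower among 42 synaptic vesicle genes (median log2 ratio -0.33), a share near that of all genes. Gabra2 and Gabrd were higher among 11 GABA-A receptor genes. Cacng3, which encodes an AMPA receptor auxiliary protein, was higher and Cacna1i, a T-type calcium channel gene, lower among 21 sodium and calcium channel genes. Of 17 modulatory receptor genes, 6 were lower and none was higher, with a median log2 ratio of -0.85. These were the serotonin receptor gene Htr1f, the dopamine receptor gene Drd1, the acetylcholine receptor genes Chrm2 and Chrna4, the kappa opioid receptor gene Oprk1 and the somatostatin receptor gene Sstr2, each with at most 3 UMIs in SL-Myh7. Of 14 sarcomere and myosin genes, Myh7 and the nonmuscle myosin gene Myh14 were higher, Myl4 and Tnnt2 were lower, and the median log2 ratio was -0.06.

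Members of the other lists past 2-fold in every library stand beside 0.890% of all 8429 genes higher and 2.15% lower. Lower were Tshz2 and Nxph1 of 5 near-projecting genes, 3 of 7 claustrum and deep intratelencephalic genes (Oprk1, Nr4a2, Sulf1), 5 of 30 axon guidance genes (Ephb6, Sema3c, Sema3e, Sema5a, Ntng1), 3 of 37 potassium channel genes and Grik3, a kainate receptor subunit, of 12 ionotropic glutamate receptor genes. Higher were Cdh7 of 18 cadherin genes (50.3 against 11.3 CPM), Bhlhe22 of 8 cortical area transcription factors (76.3 against 17.6 CPM) and Calb1 of 14 calcium-binding protein genes. Of 12 neuropeptide and growth factor genes, Penk was higher and Npy lower. None of 16 immediate early, 10 chaperone, 6 metabotropic glutamate receptor and 19 H3K4 methylation genes was past 2-fold in every library. Of 7 genes that the study named for PFC neurons, Kit was lower.

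Over the 8429 genes, the profile of SL-Myh7 (log2(CPM + 10)) correlated with that of SL-Cux2 at r = 0.906 to 0.937 in the 4 libraries, with DL-Nnat at 0.907 to 0.933 and with DL-Etv1 at 0.896 to 0.921. DL-Foxp2 (0.863 to 0.886), DL-Tshz2 (0.822 to 0.848) and DL-Pou3f1 (0.771 to 0.879) were further away. The points of these correlations are genes, which do not stand for replicates and share a library, and DL-Pou3f1 had only 62 cells. SL-Cux2 and DL-Nnat were not separated by their ranges, and 266 and 255 genes respectively were at least 2-fold apart from SL-Myh7 in their mean.

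How many of the cells carried the marker transcripts? With each cell thinned to 2000 UMIs, which left 190 cells and dropped 4, Myh7 was detected in 15.8% (95% Wilson interval 11.3 to 21.6%), Cux2 in 26.8%, Lamp5 in 46.3% and Calb1 in 62.1% (55.0 to 68.7%). Intervals here cover counting error only. The same share for Myh7 was 1.08% of 553 SL-Cux2 cells, 0.361% of 277 inhibitory neurons, 0.107% of 935 oligodendrocytes and 0 of 992 endothelial cells, with a Wilson upper limit of 0.386%. SL-Cux2 was the lowest of the other excitatory subtypes. The deep-layer subtypes ranged from 1.7% (DL-Foxp2) to 3.7% (DL-Etv1), with 3.6% in DL-Nnat. Unthinned, with a median of 6228 UMIs per cell, Myh7 was detected in 43.8% and Cux2 in 49.5% of the 194 cells. A UMI of both genes was found in 48 cells, of Myh7 alone in 37, of Cux2 alone in 48 and of neither in 61. Calb1 had the highest thinned share of the 20 genes looked up. Rorb was detected in 3.16% of thinned SL-Myh7 cells and 34.0% of SL-Cux2 cells, and Pcp4 in 19.5% and 78.7%.

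The SL-Myh7 cells were not uniform. On the study's own UMAP they were divided here into an upper island of 96 cells and a lower island of 91 cells, with 7 cells elsewhere. The line between the islands was drawn after the map was seen, at the widest gap along the UMAP 2 axis (0.382 units). The gap was small: neighbouring cells at UMAP 1 of 12.34 and 12.37 lay on opposite sides, at UMAP 2 of -0.36 and -0.76. The word island therefore names a side of the line and does not show separate groups. With the 7 cells elsewhere set aside, k-means on the same coordinates placed the island cells alike. It reused the map, so it is no independent check of the islands. Both islands were present in every library, and the lower island made up 60.9% and 36.2% of the island cells in WT replicates 1 and 2 and 58.9% and 44.3% in the Setd1a+/- replicates. The shares went with the replicate number rather than the genotype, with 95% Wilson intervals that overlapped throughout (24.0 to 50.5% in WT replicate 2, 45.9 to 70.8% in Setd1a+/- replicate 1). The upper island was deeper in each library, by 8975 against 7058 median UMIs in WT replicate 1 and 9950 against 7801 in Setd1a+/- replicate 2, and its part in the differences was not tested.

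Of 4340 genes with at least 50 UMIs in the islands, 25 were at least 2-fold higher in the upper island in every library (0.576%) and 17 in the lower (0.392%). Since the map was built from the same genes, these are descriptions with no test. The upper island was led by Penk, the enkephalin precursor, which had 138 CPM on average there and 2.74 CPM in the lower island. S100a6 followed with 624 against 47.8 CPM, and Cdkn1a, a cell cycle inhibitor, with 146 against 8.16 CPM. Secreted and activity-related genes were among them: Bdnf, a neurotrophin, had 290 against 35.2 CPM, Inhba, an activin subunit, 102 against 6.98 CPM, Scg2, a secretory granule protein, 406 against 89.9 CPM, and the immediate early gene Fos 145 against 33.4 CPM. For Penk the lowest upper island value over the 4 libraries was 111 CPM and the highest lower island value 5.69 CPM. In SL-Myh7 as a whole Penk had 77.4 CPM, against 44.3 CPM in DL-Nnat, 7.10 CPM in DL-Etv1 and 0 to 2.49 CPM in the other subtypes. Several of the other genes were also well expressed outside SL-Myh7. In SL-Cux2, DL-Etv1 and DL-Nnat, Fos had 171, 149 and 183 CPM, Cdkn1a 129, 103 and 107 CPM and Bdnf 136, 144 and 152 CPM. Scg2 had 257 CPM in DL-Nnat and 491 CPM in DL-Tshz2. In contrast, Inhba had at most 29.85 CPM and S100a6 at most 133 CPM in any other subtype.

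The lower island was led by Nnat, Bhlhe22, Crym and Matn2. Bhlhe22, a basic helix-loop-helix factor of cortical area and layer identity, had 160, 175, 137 and 132 CPM there and 0, 14.5, 47.1 and 31.0 CPM in the upper island. Crym, a thyroid hormone-binding protein, had 308 against 67.3 CPM, Matn2 had 96.5 against 16.0 CPM, and Cdh13, a cadherin, had 208 against 59.5 CPM. Nnat varied widely, with 360 CPM in WT replicate 1 and 47.4 to 70.2 CPM in the other libraries. Of the 20 genes leading the whole subtype, S100a6, Aldh3b1, Stard8 and Clec18a were at least 2-fold higher in the upper island and Ngb and Matn2 in the lower island, in every library. The mean levels in the upper and lower islands were 140 and 147 CPM for Cux2, 444 and 502 CPM for Calb1 and 403 and 328 CPM for Lamp5, none of them higher on the same side in every library, and in WT replicate 1 Cux2 had 75.0 against 210 CPM. Myh7 was higher in the upper island in every library, with a mean of 140 against 80.1 CPM.

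Several gene lists held more members higher in the upper island, beside 11.9% of all 4340 genes higher there and 13.0% higher in the lower island in every library. Of 24 potassium channel genes, 10 were higher in the upper island in every library and 1 (Kcnj6) in the lower; of 7 immediate early genes, 4 (Fos, Junb, Egr3, Homer1) and none; of 11 pan-excitatory genes, 4 (Slc17a7, Nrgn, Nrn1, Snap25) and none; and of 6 neuropeptide and growth factor genes, 4 (Cck, Penk, Bdnf, Scg2) and none. The summed immediate early genes reached 1254 to 1972 CPM in the upper island and 390 to 1111 CPM in the lower, beside 1141 to 1711 CPM in the other 6 subtypes summed. The lower island lay below those subtypes in every library. The upper island lay above them in WT and below them in Setd1a+/-. Among cortical area transcription factors, 3 of 6 (Nr2f1, Lmo4, Bhlhe22) were higher in the lower island and none in the upper. Thinned to 2000 UMIs per cell, S100a6 was detected in 57.9% of upper and 7.87% of lower island cells, Bdnf in 40.0% and 7.87%, Crym in 10.5% and 42.7%, and Penk in 15 of 95 cells and 0 of 89.

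**Figure D3:**
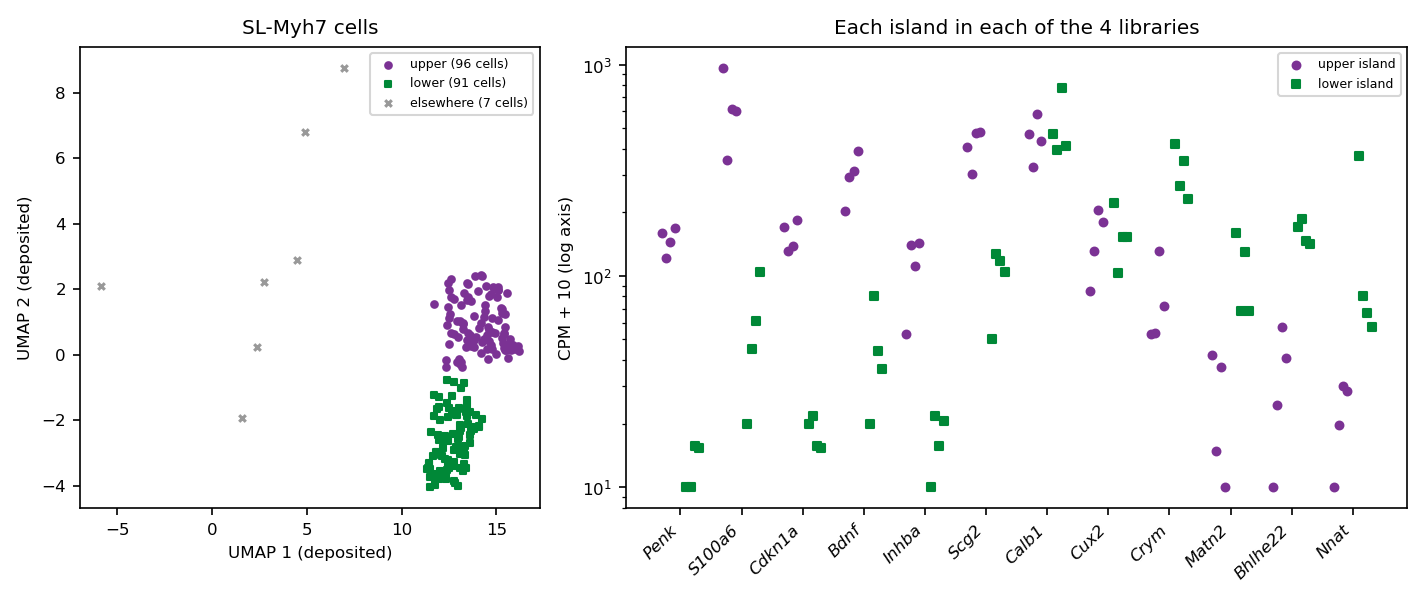
Left, the 194 SL-Myh7 cells on the deposited UMAP coordinates, by island. Right, CPM + 10 on a log axis of 12 genes in the upper (circles) and lower (squares) island, a point for each of the 4 libraries: Penk, S100a6, Cdkn1a, Bdnf, Inhba and Scg2 are higher in the upper island, Crym, Matn2, Bhlhe22 and Nnat in the lower, and Calb1 and Cux2 overlap.

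A split of the cells that did not use the map gave a different picture. K-means with 2 groups on 10 principal components, after centring each library, made groups of 136 and 58 cells, and 40 cells of the smaller group lay in the upper island and 14 in the lower. The smaller group was shallower, with 4301 against 7296.5 median UMIs, and had a higher median mitochondrial share in every library (5.35% against 3.96% over all cells), and the part of both in the split was not tested. It made up 30.4% and 36.5% of WT and 25.0% and 28.6% of Setd1a+/- cells. Myh7 was lower in it in every library, with a mean of 56.4 against 131 CPM, and Penk was higher, with 165 against 57.1 CPM.

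Did the share of SL-Myh7 cells differ between genotypes? SL-Myh7 made up 5.61% (95% Wilson interval 3.77 to 8.28%) and 4.37% (3.35 to 5.69%) of excitatory neurons in the WT libraries and 8.09% (6.28 to 10.4%) and 13.0% (10.3 to 16.3%) in the Setd1a+/- libraries. Both Setd1a+/- libraries lay above both WT libraries, within replicate 1 with overlapping intervals and within replicate 2 without. Such intervals take cells as independent and cover counting error only, so they carry no test of genotype. The mean shares were 4.99% and 10.55%, a difference of 5.56 percentage points, for which the exact permutation test (two-sided) gave p = 0.333, the smallest that 2 against 2 libraries allow. Over all annotated PFC cells the shares were 0.877% and 1.94% in WT and 2.56% and 4.18% in Setd1a+/- (exact permutation test, p = 0.333). In an edgeR quasi-likelihood test on cell numbers over the 7 subtypes, the log2 fold change was 1.09 ± 0.48 (SE), with an adjusted p of 0.279 (unadjusted 0.0398), so the difference did not pass the correction. In a share, more SL-Myh7 cells and fewer cells of other subtypes cannot be told apart, and DL-Foxp2 made up 29.5%, 29.5%, 29.2% and 14.3% in the same order.

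**Figure D4:**
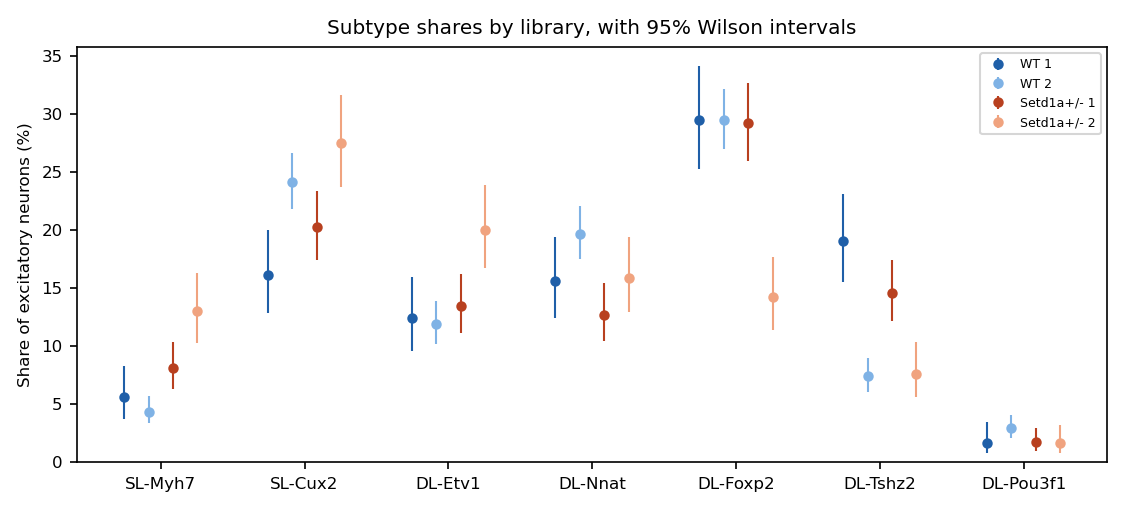
Share of each of the 7 subtypes among excitatory neurons (y axis, %) in the 4 libraries, with 95% Wilson intervals as bars. SL-Myh7 is at 4.37 and 5.61% in WT and at 8.09 and 13.0% in Setd1a+/- libraries.

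To ask whether Setd1a heterozygosity changed gene expression in SL-Myh7, the UMIs of its cells were summed per library and compared between the 2 libraries of each genotype. Setd1a itself had 1, 4, 0 and 1 UMIs in SL-Myh7 and 11.1, 12.5, 6.42 and 10.5 CPM over all excitatory neurons; the reads come from transcript 3′ ends, outside the small deletion, and are no check of the genotype. No gene of 5351 tested passed an adjusted p under 0.05 with a fold change (FC) above 1.5 in edgeR's quasi-likelihood test (0% called), and the smallest adjusted p was 0.999. At an unadjusted p under 0.05 there were 63 genes (1.18%), 23 higher and 40 lower in Setd1a+/-, and DESeq2 called 0 genes with 2 at an unadjusted p under 0.05. When the pairing of a WT and a mutant library in each replicate entered as a block, 228 genes had an unadjusted p under 0.05 (90 higher, 138 lower), none was called, and the smallest adjusted p was 0.319. Leaving out Setd1a+/- replicate 2 raised the calls to 90, of which 74 were also called between replicate numbers, and leaving out WT replicate 2 gave 5, all of them called between replicate numbers as well.

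Genes whose libraries did not overlap between genotypes numbered 674 higher (12.6%) and 846 lower (15.8%) in Setd1a+/-. The 5 with the lowest p in each direction are given as values, since none passed the correction (adjusted p 0.999 for each in edgeR). The highest ranked of those above WT was 6030458C11Rik, with 36.2 and 34.3 CPM in the WT libraries, against 120 and 65.7 CPM for Setd1a+/- (log2 FC 1.37 ± 0.43, SE). Rpl7l1, a ribosomal protein L7-like gene, had 56.9 and 28.1 against 120 and 77.3 CPM, Trmt6, a subunit of a tRNA methyltransferase, 31.1 and 25.0 against 58.6 and 65.7 CPM, Asns, the asparagine synthetase, 56.9 and 74.9 against 136 and 118 CPM, and Ankrd46 109 and 109 against 240 and 158 CPM. On the lower side, Srrt, a factor of RNA biogenesis, had 67.3 and 56.1 CPM in WT, against 12.3 and 23.2 CPM in Setd1a+/- (log2 FC -1.67 ± 0.48). Prkaca, the catalytic subunit of protein kinase A, had 93.2 and 68.6 against 33.9 and 30.9 CPM, Arih1, a ubiquitin ligase, 56.9 and 68.6 against 27.7 and 19.3 CPM, Cobl, an actin nucleator, 93.2 and 65.5 against 40.1 and 29.0 CPM, and 4933427D14Rik 41.4 and 31.2 against 12.3 and 7.73 CPM. These values rest on 4 to 82 UMIs per library.

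**Figure D5:**
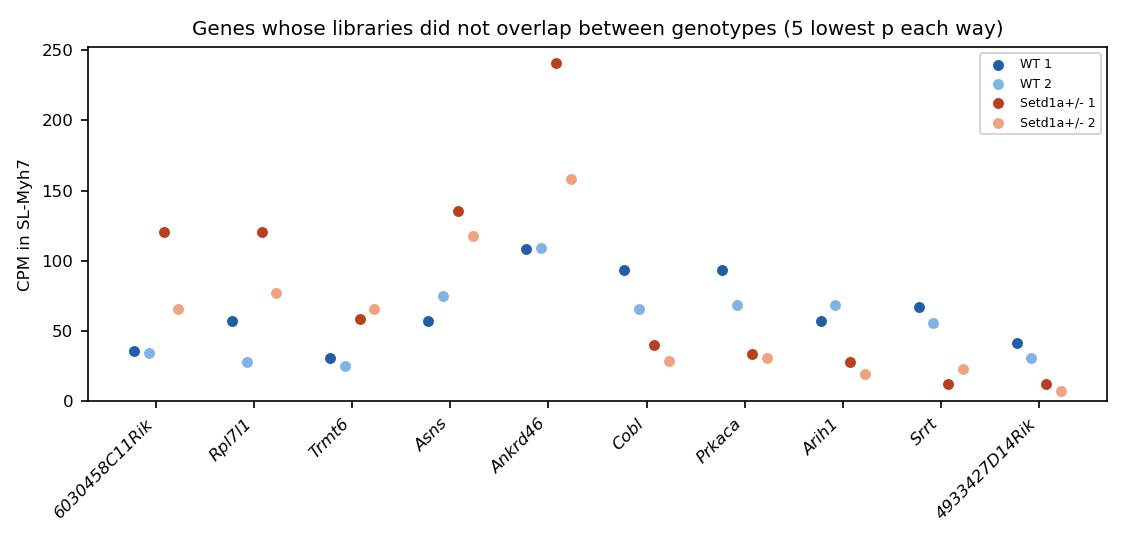
CPM in SL-Myh7 (y axis, linear) of the 10 genes with the lowest p among those whose libraries did not overlap between genotypes, a point for each of the 4 libraries, ordered by log2 FC. The WT and Setd1a+/- points are separated for each gene by how the genes were chosen, and none passed the correction.

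Neither marker of the subtype passed the test. Myh7 had a log2 FC of -0.22 ± 0.37 (SE) and Cux2 of 0.39 ± 0.29 between Setd1a+/- and WT, with adjusted p of 0.999 each in edgeR; the Myh7 libraries overlapped and the Cux2 libraries did not. Of 10 tested layer 2/3 genes, 5 were higher and 5 lower, with a median log2 FC of 0.03. Over all 5351 genes tested the median was 0.00, with 2690 higher and 2661 lower. Leaving out 1 library moved the layer 2/3 median to between 0.07 (Setd1a+/- replicate 1) and 0.21 (WT replicate 2). Immediate early genes stood lower in Setd1a+/- in 8 of 10 cases, with a median log2 FC of -0.42, and 6 of them did not overlap between genotypes (1 did not in the other direction), beside 15.8% of all genes lower and 12.6% higher without overlap. Among them Fos had 98.3 and 131 CPM in WT, against 74.0 and 75.4 CPM in Setd1a+/- (log2 FC -0.62 ± 0.33, and -0.30 without WT replicate 2), and Egr1 160 and 143 against 108 and 120 CPM, whereas Egr3 was on the other side with 98.3 and 109 against 126 and 112 CPM. The median of the list was -0.06 without WT replicate 2 and -0.24 without Setd1a+/- replicate 1. Potassium channel genes were lower in 20 of 27 cases, with a median of -0.30, and 10 of them did not overlap (1 did not in the other direction), beside the same 15.8% and 12.6% of all genes. This median was -0.08 without WT replicate 2, -0.10 without Setd1a+/- replicate 1 and -0.20 without WT replicate 1. None of these members passed the correction, and none had an unadjusted p under 0.05.

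Among 12 tested genes of H3K4 methylation, the biochemical role of Setd1a, 10 were lower and 2 higher in Setd1a+/-. Of all 5351 genes tested, 2661 were lower and 2690 higher. The median log2 FC of the list was -0.25, which moved to -0.52 when Setd1a+/- replicate 2 was left out and to -0.46 when WT replicate 2 was. Kdm5a, an H3K4 demethylase, was the only member with an unadjusted p under 0.05, at 62.1 and 46.8 CPM in WT, against 21.6 and 21.3 CPM in Setd1a+/- (log2 FC -1.28 ± 0.45, adjusted p 0.999 in edgeR). Kmt2a, a methyltransferase of the same family as Setd1a, had 124 and 109 against 55.5 and 94.7 CPM, and Dpy30, a core subunit of the methyltransferase complexes, had 77.6 and 137 against 170 and 129 CPM, which overlapped. Of the genes that lead the islands, Penk (72.5 and 71.7 against 64.7 and 100 CPM) and Bdnf (98.3 and 209 against 157 and 247 CPM) overlapped between genotypes.

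Across the other lists no member was called, and over all 5351 genes tested 2690 were higher and 2661 lower. The medians of lists with at least 10 tested genes lay between -0.42 and 0.03 with all libraries and between -0.61 and 0.33 when 1 was left out, and those of calcium-binding protein genes (-0.34 to 0.33), cadherin genes (-0.23 to 0.18) and axon guidance genes (-0.29 to 0.02) took either sign. Pan-excitatory genes were lower in 8 of 11 cases (median log2 FC -0.28), and this median was -0.05 without WT replicate 2, -0.06 without Setd1a+/- replicate 1, -0.45 without WT replicate 1 and -0.61 without Setd1a+/- replicate 2. Synaptic vesicle genes were lower in 24 of 38 cases (-0.06), with a median that was -0.24 without Setd1a+/- replicate 2 and turned positive without Setd1a+/- replicate 1 (0.17), without WT replicate 2 (0.01) and with no filter on low counts (0.01). The neuropeptide and growth factor genes were higher in 5 of 7 cases (0.30). Among markers of other cell types, interneuron genes summed to 5.18 and 18.7 CPM in WT, against 89.4 and 23.2 CPM in Setd1a+/-. The other subtypes held 9.2 and 38.5 CPM in WT, against 23.0 and 8.65 CPM in Setd1a+/-. Oligodendrocyte lineage genes summed to 79.2 to 136 CPM over the 4 libraries. Astrocyte genes summed to 290 and 359 CPM in WT, against 219 and 213 CPM in Setd1a+/-, most of it Slc1a2, and their part in the genotype values was not tested. Of 4 tested genes that the study named for PFC neurons, all 4 were lower (median log2 FC -0.45), which is not independent evidence since the study chose them on these samples. That median turned positive without Setd1a+/- replicate 1 (0.18) and without WT replicate 2 (0.19), and was -0.92 without WT replicate 1 and -2.09 without Setd1a+/- replicate 2.

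Whether the genotype difference in SL-Myh7 departed from that in other excitatory neurons was tested as an interaction, with the library as a block. Against SL-Cux2, no gene of 7864 was called in edgeR (0% called; 302 at an unadjusted p under 0.05, smallest adjusted p 0.159). Against the other 6 subtypes summed, no gene of 10860 was called (0% called; 506 at an unadjusted p under 0.05, smallest adjusted p 0.284). Among the list members, Chgb, Fos and Nr4a1 shared that smallest adjusted p, as did Pcp4, one of the 10 genes with the lowest ratios in the profile. The difference between genotype effects was 0.62 ± 0.16 (SE, log2 scale) for Chgb, a secretory granule protein, and -1.12 ± 0.30 for Fos. It was -1.22 ± 0.31 for Nr4a1, an immediate early nuclear receptor, and -0.80 ± 0.21 for Pcp4. For Arih1 the difference between the genotype effects of SL-Myh7 and the other subtypes was -1.53 ± 0.44 on the log2 scale (adjusted p 0.570 in edgeR), and for Trmt6 it was 1.31 ± 0.45 (adjusted p 0.990 in edgeR). The sum of the other subtypes also depends on how many cells each contributed. DL-Foxp2 made up 29.5% and 29.5% of excitatory neurons in WT, against 29.2% and 14.3% in Setd1a+/-. Immediate early genes in that sum reached 1141 and 1277 CPM in WT, against 1711 and 1516 CPM in Setd1a+/-. In SL-Myh7 they reached 1154 and 1332 against 980 and 1051 CPM. The part of cell composition in these differences was not tested. The counts of called genes do not show that the subtypes respond alike.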

How the data were processed

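Single cells of PFC from 4 libraries (2 WT, 2 Setd1a+/-) were measured on the 10x Genomics platform; striatal libraries were not used here. The authors deposited UMI counts per gene and barcode, made with Cell Ranger 3.0.2 and mm10, and per-cell annotations made with Seurat 3.2.0 (a minimum of 800 genes and a maximum of 10% mitochondrial reads per cell, integrated across libraries). The UMAP coordinates, used as a score without unit, are the authors' own as deposited. Doublet removal is not given in the sources used here, and none was done. Barcodes were matched to the deposited subtype names, and raw counts were summed per library and subtype. CPM is relative to all UMIs of that sum; log2 values use a pseudocount of 10 CPM.

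Genotypes were compared on sums with edgeR 4.0.16 (TMM, filterByExpr with a minimum count of 10, quasi-likelihood test, Benjamini-Hochberg); a call needed an adjusted p under 0.05 and FC above 1.5. DESeq2 1.42.0, RLE, library size alone, no filter, a replicate block and leaving out each library were alternatives. Standard errors were taken as the absolute log2 FC divided by the square root of F. The scripts were tested on simulated counts. There the genotype test called 0 of 182 tested genes changed 2-fold, 142 of 177 changed 4-fold and 176 of 180 changed 8-fold. A lack of calls therefore does not show that 2-fold changes were absent. Gene positions came from GENCODE vM21 and promoters from RefSeq (13 of the 20 leading genes had one).

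The replicate numbers pair the libraries, since per the methods each replicate processed 1 WT and 1 mutant library; differences between replicates correlated at r = 0.435 across 5351 genes between genotypes. The main genotype test had no block. Its p-values and SEs reflect the spread between pools of 2 mice, including the difference between replicate numbers. Interaction p-values reflect how the difference between subtypes varied between libraries. Named genes were the 20 with the highest ratio to the highest other subtype (at least 50 UMIs, above the others in every library), the 10 with the lowest ratio (others at 50 CPM or more), the 5 per direction with the lowest genotype p among genes without overlap, and members of fixed lists, 32 in all; list members not named in the text were counted only. The members and lists were chosen with earlier results of these data known. The islands and the contrast of replicate numbers were added after the data were seen. Some genes under these rules are not reported here.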

Additional observations from a re-analysis of the deposited data

How the results depend on the processing

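Calls in the genotype comparison stayed at 0 under RLE, library size alone, no filter, DESeq2 and the replicate block, and leaving out a library gave 0 to 90. The comparison with SL-Cux2 gave 0 to 1 when a library was left out and 0 without the library block (87 genes at an unadjusted p under 0.05), and that with the other 6 subtypes gave 0 to 4. A lone library is then assumed to vary like the other group. Without Setd1a+/- replicate 2, 6030458C11Rik (log2 FC 1.74) and Rpl7l1 (1.56) passed the test. Thinning each cell to 2000 UMIs left 4261 genes deep enough, with 20 higher, 74 lower and 9 above every other subtype, and kept 6 of the 20 leading genes, while a minimum of 20 UMIs kept 9. Without a library the profile counts were 65 to 86 higher, 182 to 201 lower and 21 to 24 above every other subtype. The Cux2 ratio was 5.91 after thinning. Detection moved with depth: Myh7 in 7.22% at 1000 UMIs and 43.8% unthinned, Cux2 in 11.9% and 49.5%. The difference of median depth, 381.25 UMIs higher in Setd1a+/-, ranged from -966 to 1728.5 UMIs without a library and turned negative without WT replicate 2 (-560.25) and Setd1a+/- replicate 2 (-966). The Myh7 log2 FC ranged from -0.63 to 0.22, positive without WT replicate 2 (0.22) and Setd1a+/- replicate 1 (0.07). The share difference was 3.10 to 8.03 points. The replicate block, which the pairing supports, changed no call. Where a value moved, the cause was not tested.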
